A study of Homo sapiens with 4 samples.

Results

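The CXCL chemokine cluster at 4q13 was described in Hi-C contact maps of IMR90 cells, a human lung fibroblast line. Members were the bins of chromosome 4 that overlap a fixed window over the 9 chemokine genes, together with 10 bins on each side. These were 24 of the 14444 bins of about 200 kb in the series. The 4 bins over the window, chr4:74399438-75199215 in hg19, are called the cluster bins here, and the flanks are called the albumin side and the EREG and AREG side after genes they hold. All 24 bins were among the 13604 bins with enough listed pairs to be used. In Hi-C, fixed chromatin is cut with HindIII, cut ends near each other in the nucleus are ligated, and the ligated pairs are read by sequencing.

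The cells carried pLNCX2 ER:HRAS G12V, an oncogenic RAS protein that is inactive until 4OHT is added. OIS cells (oncogene-induced senescence) received 100 nM 4OHT for 6 days, and Grow cells received none. Grow-shA1 and OIS-shA1 cells also carried pMSCV miR shHMGA1, a hairpin against HMGA1, a chromatin protein that binds AT-rich DNA. Both shA1 maps pool the 2 samples of their condition. The maps without shA1 were made from previously generated data of these investigators and match no sample of the series. A difference between a map with shA1 and a map without it therefore cannot be told apart from a difference between data sets. No sample label gives the construct, control vector or 4OHT treatment of the cells behind the maps without shA1. Their description here follows the study's account of its cell model. There was 1 map per condition and hence no test between conditions. Contact maps hold no RNA level, so neither the knockdown nor the fibroblast label could be checked from them.

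The 9 member genes encode small secreted proteins that attract leukocytes through G protein-coupled receptors. CXCL8, CXCL6, CXCL1, CXCL5, CXCL3 and CXCL2 attract neutrophils and are known parts of the senescence-associated secretory phenotype, whose transcription depends on NF-κB. PF4, its close copy PF4V1 and PPBP are platelet chemokines. CXCL8 (chr4:74606236-74609433), CXCL6, PF4V1 and CXCL1 (chr4:74735110-74737025) are read from the plus strand and start in the bin chr4:74601876-74800381. PF4, PPBP, CXCL5, CXCL3 and CXCL2 (chr4:74962757-74964913) are read from the minus strand and start in the next bin, chr4:74800382-74999546. The second of these also holds the start of MTHFD2L, a mitochondrial folate enzyme gene. The first cluster bin (chr4:74399438-74601875) holds the start of RASSF6, a RAS-association domain protein, and the last (chr4:74999547-75199215) that of EPGN, a ligand of the EGF receptor, and neither holds a member. The platelet chemokine genes thus shared their bins with the neutrophil chemokine genes, and no contact below can be given to a single gene.

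The windows below show a κB motif, the site type that NF-κB binds, in the member promoters, because it is a sequence the secretory members share and the rule did not use. The letters GGAATTTCC, searched on both strands of the RefSeq promoter table (GRCh38.p14, 250 bases before to 50 after each start), were found in 6 of the 8 member promoters listed there and in 162 of all 35116 promoters (0.461%). The capitals mark the motif, each window is 29 bases on the gene's own strand, and the coordinates are those of its only exact match on hg19 chromosome 4.
CXCL8 (chr4:74606185-74606213): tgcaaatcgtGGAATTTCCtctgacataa
CXCL6 (chr4:74702296-74702324): ctgagttcagGGAATTTCCccagcatccc
CXCL1 (chr4:74735022-74735050): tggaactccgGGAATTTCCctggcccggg
CXCL5 (chr4:74864466-74864494): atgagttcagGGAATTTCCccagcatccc
CXCL3 (chr4:74904466-74904494): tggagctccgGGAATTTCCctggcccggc
CXCL2 (chr4:74964971-74964999): tggagctccgGGAATTTCCctggcccggg
The motif began 77 to 91 bases before the RefSeq start in all 6. The gene positions above are GENCODE's, whose starts differ, and from those the motif began 41 bases before the start of CXCL8, 51 before CXCL6 and 40 behind that of CXCL3, while CXCL1, CXCL5 and CXCL2 kept 78, 90 and 76. The CXCL6 and CXCL5 windows, which lie 162.2 kb apart in different bins, were equal at 28 of 29 bases. CXCL1 was equal to CXCL2 at 28 and to CXCL3 at 27 bases, while the CXCL8 window was equal to the others at 14 to 17 bases. These counts include the motif itself, which is equal in all windows by choice. PF4V1 and PPBP lacked these letters, and PF4 was not in the table. Such a match is a description of the sequence and not of binding. The letters were chosen because secretory members share them, so the member count beside that of all promoters tests nothing.

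The bin edges set what the maps can separate. Each lies at a HindIII site (AAGCTT, in capitals), as did all 14287 inner edges of the autosomes and X when read in GRCh37. The edges in front of CXCL8, between CXCL1 and PF4 and behind CXCL2 are shown.
Edge before CXCL8 (chr4:74601864-74601887): attaaaaaagaAAGCTTatatagt
Edge between CXCL1 and PF4 (chr4:74800370-74800393): aaaattttttaAAGCTTttatgaa
Edge behind CXCL2 (chr4:74999535-74999558): agcatagaagcAAGCTTgcttctc
The cluster bins were 62.0% to 63.9% AT, close to the rest of chromosome 4, whose median GC content was 37.3%. All 4 lay in the A compartment, the group of bins with many genes and open chromatin, in every map. The compartment score (the loading of a bin on the first principal component of its chromosome, with a root mean square of 1 and positive in A) averaged 0.995 ± 0.0911 (SD over the 4 cluster bins) in Grow, 0.860 ± 0.0787 in Grow-shA1, 0.940 ± 0.123 in OIS and 0.901 ± 0.0716 in OIS-shA1. Grow was the highest map and Grow-shA1 the lowest.

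The inner contacts of the cluster stood highest in OIS and lower again in OIS-shA1. Values are distance-corrected contact scores, higher for more frequent contact. The correction left a trend with distance, so 0 is not the average at every distance. The mean over all chromosomes in Grow was 0.717 for neighbouring bins, 0.209 for bins 2 apart and -0.238 for bins 10 apart, and a level is therefore set against other maps or against pairs at the same distance. The 6 pairs among the 4 cluster bins averaged 1.01 score units in Grow, 0.974 in Grow-shA1, 1.45 in OIS and 1.12 in OIS-shA1. These lay at percentiles 82.6, 84.7, 96.9 and 92.7 of 12991 runs of 4 neighbouring bins over all chromosomes. OIS was above Grow in 6 of 6 pairs, by 0.250 to 0.749 and by 0.440 ± 0.206 on average (SD over pairs). OIS-shA1 was below OIS in 6 of 6 pairs, by a difference of -0.329 ± 0.0479. The OIS map enters both differences, so they are not independent of each other. Grow-shA1 differed from Grow by -0.0339 ± 0.0447, less than the spread between pairs, and by 0.0210 (6 pairs) with scores centred on the pairs that all maps list.

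The pair of bins that holds all members showed the widest step of the 6. The bin of CXCL8, CXCL6, PF4V1 and CXCL1 and the bin of PF4, PPBP, CXCL5, CXCL3 and CXCL2 had a contact of 0.971 in Grow, 0.994 in Grow-shA1, 1.72 in OIS and 1.39 in OIS-shA1. Both maps of growing cells lay together, and both maps of senescent cells lay above them. The difference of 0.749 between OIS and Grow exceeded that of 98.9% of 13346 neighbouring pairs of bins over all chromosomes, whose median was -0.0672. The CXCL8 to CXCL1 bin with the EPGN bin followed, at 0.0634 in Grow, 0.00924 in Grow-shA1, 0.700 in OIS and 0.318 in OIS-shA1. Its difference of 0.637 between OIS and Grow was above that of 98.2% of pairs at the same distance. With the RASSF6 bin the CXCL8 to CXCL1 bin had a contact of 1.44 in Grow, 1.44 in Grow-shA1, 1.72 in OIS and 1.38 in OIS-shA1, so that here the OIS-shA1 map stood with the growing ones.

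**Figure D1:**
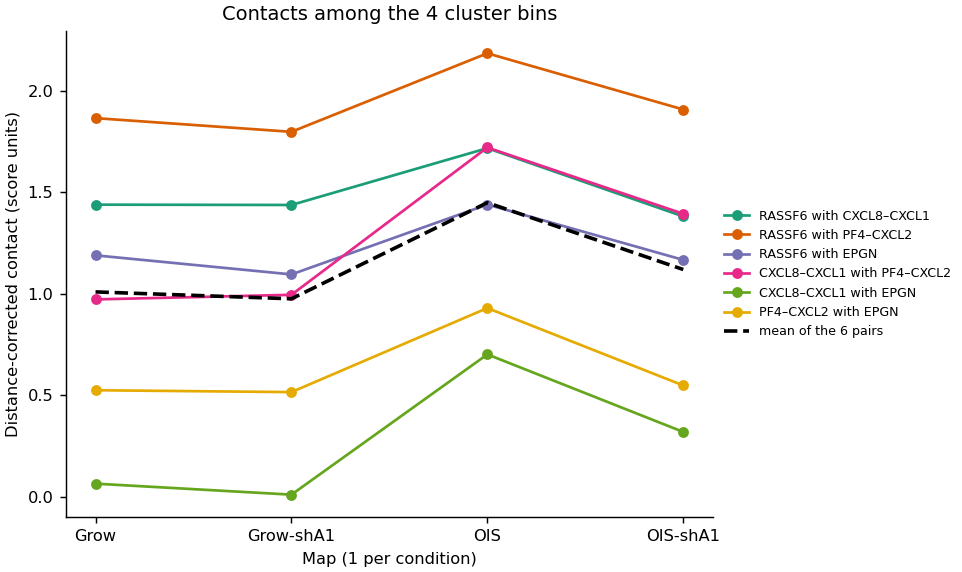
Distance-corrected contact (score units) of the 6 pairs among the 4 cluster bins in the 4 maps, 1 value per pair and map, with the mean of the pairs dashed and lines joining the values of a pair. All 6 pairs are highest in OIS, and the mean is 1.01 in Grow, 0.974 in Grow-shA1, 1.45 in OIS and 1.12 in OIS-shA1.

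A size of 0.2 score units was used to call a difference. Among the runs of 4 bins, 17.3% were called higher in OIS than in Grow, and the cluster's 0.440 lay at percentile 96.1 of the runs (median -0.0940). OIS-shA1 was called lower than OIS in 19.9% of runs, and the cluster's -0.329 lay at percentile 4.76. The RAS difference with shA1 (OIS-shA1 minus Grow-shA1), which shares no map with OIS minus Grow, was 0.144 ± 0.174 and positive in 5 of 6 pairs. The interaction, which is the RAS difference with shA1 minus the one without and in which a constant offset between data sets cancels, was -0.295 ± 0.0805 and below 0 in 6 of 6 pairs, at percentile 2.96. It was below -0.2 in 10.1% of runs. These percentiles place the cluster within these 4 maps and say nothing of how another experiment would vary.

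On the EREG and AREG side, contacts of the cluster with neighbouring A bins were higher in OIS. EREG, AREG and BTC encode EGF receptor ligands like EPGN, and a bin near the far end of this side holds CXCL9, CXCL10 and CXCL11, the interferon-induced ligands of CXCR3. The mean contact of the cluster with the 10 bins was -0.416 in Grow, -0.465 in Grow-shA1, -0.227 in OIS and -0.483 in OIS-shA1. The difference between OIS and Grow was 0.190 ± 0.114 (SD over the cluster bins) and just short of the 0.2 used for a call, against a median of -0.115 over 25603 such values of runs of 4 bins, 15.3% of which were above 0.2. With scores centred on the pairs that all maps list it was 0.346.

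OIS stood above Grow for all 6 A bins of this side, by 0.117 to 0.443. The EREG and AREG bin (chr4:75199216-75396711) had a contact with the cluster of -0.256 in Grow, -0.323 in Grow-shA1, 0.0924 in OIS and -0.117 in OIS-shA1, and OIS was 0.348 ± 0.105 above Grow. The bin of USO1, a tether of Golgi vesicles, and G3BP2, a stress granule protein, had -0.155, -0.250, 0.288 and 0.114 in the same order, a difference of 0.443 ± 0.136. The bin of CXCL9, CXCL10 and CXCL11 had -0.468, -0.376, -0.351 and -0.209, and its difference of 0.117 ± 0.219 between OIS and Grow was smaller than the spread between the cluster bins. It was the only bin of the 10 in which OIS-shA1 was above OIS, by 0.142 ± 0.0866.

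The 4 B bins of this side, with BTC and the transmembrane protein gene PARM1 among them, differed chiefly in OIS-shA1. They averaged 0.0477 between OIS and Grow (3 of 4 above 0) and -0.427 between OIS-shA1 and OIS (4 of 4 below 0, from -0.451 to -0.379). The BTC bin had a contact with the cluster of -0.0505 in Grow, -0.179 in Grow-shA1, 0.152 in OIS and -0.284 in OIS-shA1. Over all 10 bins OIS-shA1 minus OIS was -0.257 ± 0.0737, a fall called in 20.5% of runs, and the interaction was -0.207 ± 0.128, against 13.0% of runs below -0.2. With scores divided by their SD at the same distance these were -0.196 and -0.158, short of the call.

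On the albumin side, contacts with B bins were lower in both senescent maps. This side holds ALB, AFP and AFM, which encode liver-expressed plasma proteins of the albumin family, as does GC, the vitamin D-binding protein gene. The mean contact of the cluster with the 10 bins was -0.792 in Grow, -0.982 in Grow-shA1, -1.11 in OIS and -1.33 in OIS-shA1. The RAS difference was -0.319 ± 0.199 without shA1 and -0.353 ± 0.233 with it, and the interaction was -0.0337 ± 0.0363. A RAS difference below -0.2 was found in 41.3% and 31.3% of runs, so falls of this size were common along the genome. Divided by the SD at the same distance, they were -0.121 and -0.132.

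Of the 8 B bins on the albumin side, 7 stood lower in OIS than in Grow and 8 stood lower in OIS-shA1 than in Grow-shA1. The NPFFR2 bin, which holds a neuropeptide receptor gene, had a contact with the cluster of -1.49 in Grow, -1.37 in Grow-shA1, -2.16 in OIS and -2.38 in OIS-shA1. The ALB, AFP and AFM bin (chr4:74200434-74399437), next to the cluster, ran otherwise. Its contact was 0.133 in Grow, -0.114 in Grow-shA1, 0.241 in OIS and -0.295 in OIS-shA1, so that both shA1 maps stood below both others. Grow-shA1 was below Grow in 9 of the 10 bins of this side, by -0.190 ± 0.0386 on average, at percentile 8.46 of runs.

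**Figure D2:**
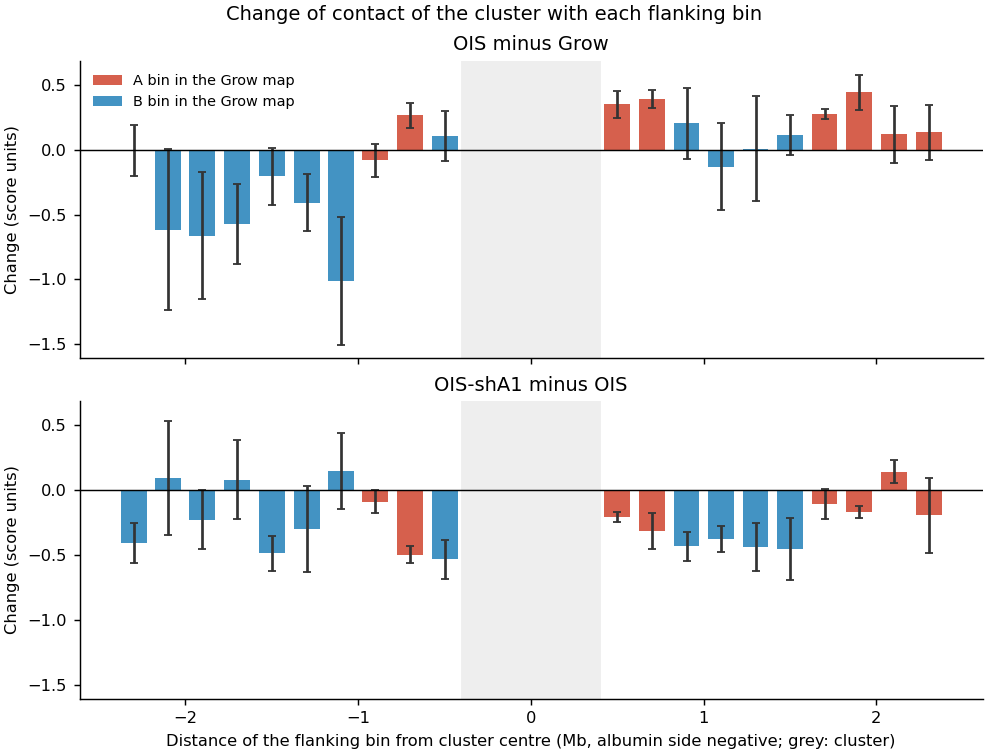
Difference in contact of the cluster with each of the 20 flanking bins (score units, mean over the 4 cluster bins with their SD as error bars) against distance from the cluster centre, for OIS minus Grow (top) and OIS-shA1 minus OIS (bottom), with A bins of the Grow map in red and B bins in blue. In the top panel the 6 A bins on the right are all above 0 and 7 of 8 B bins on the left are below 0.

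4 flanking bins carried the compartment sign of A in OIS only. These included the ALB, AFP and AFM bin, with a compartment score of -0.518 in Grow, -0.829 in Grow-shA1, 0.186 in OIS and -0.327 in OIS-shA1. The BTC bin had -0.743, -0.952, 0.198 and -0.409 in the same order. The 2 others, without a named landmark gene, start at positions 72401175 and 76200051. Over chromosome 4, 87 of 899 bins were B in Grow and A in OIS and 5 were the reverse, while 41 were A in OIS and B in OIS-shA1 and 9 were the reverse.

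**Figure D3:**
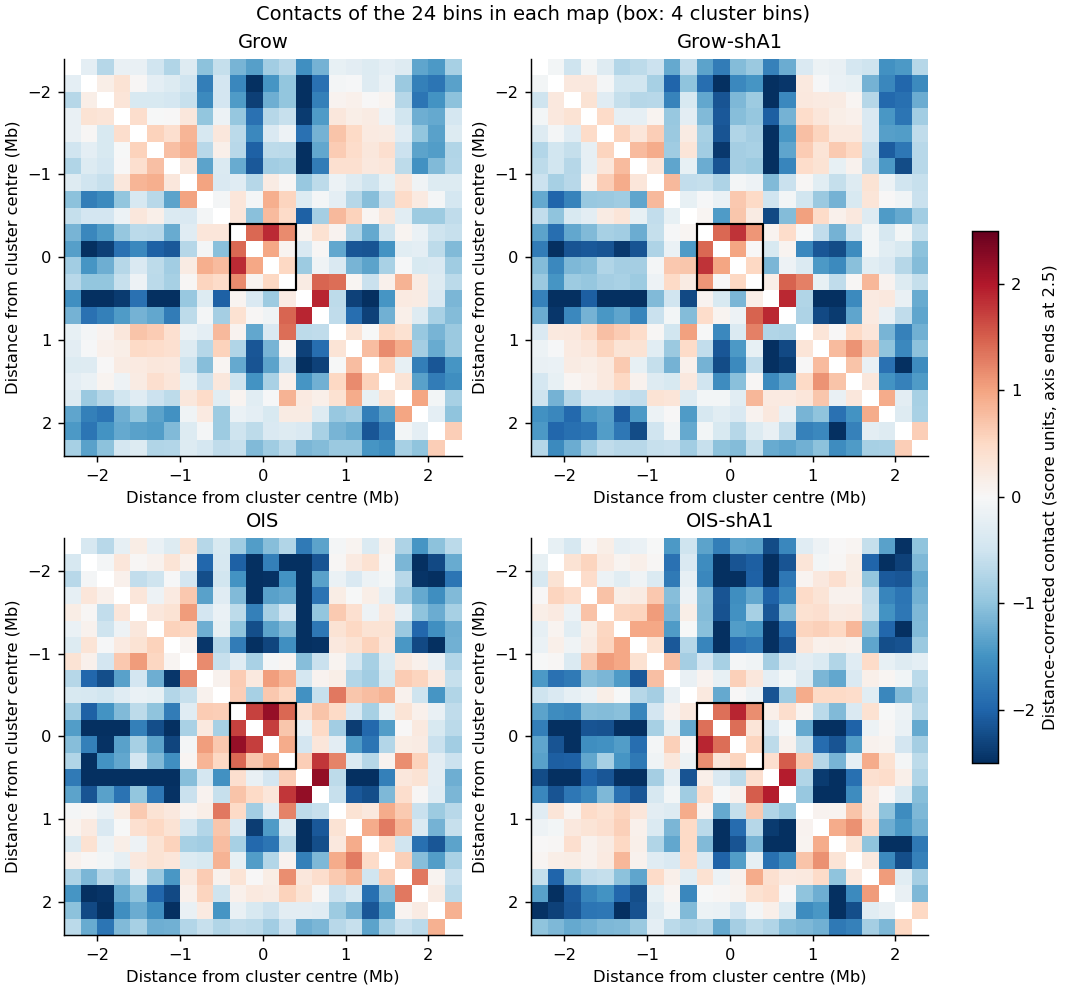
Distance-corrected contact scores (score units, colour) among the 24 bins in each of the 4 maps, both axes giving distance from the cluster centre in Mb, with the 4 cluster bins boxed and the pair of a bin with itself left white. Colours end at 2.5 score units in either direction, and the box is reddest in OIS, where its mean is 1.45.

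Over all contacts up to 2 Mb, called local here, the cluster differed little between OIS and Grow and stood lowest in OIS-shA1. The mean over the 4 bins was -0.252 in Grow, -0.369 in Grow-shA1, -0.209 in OIS and -0.478 in OIS-shA1. The difference between OIS and Grow was 0.0431 ± 0.0784, within the spread between bins, and 0.235 when only contacts up to 1 Mb were counted. The one between OIS-shA1 and OIS was -0.269 ± 0.0576, at percentile 10.1 of 13427 bins. It was below -0.2 in 3 of the 4 cluster bins and in 12 of the 24 bins of the region, against 19.1% of all bins and 237 of 887 on chromosome 4. Between OIS and Grow, 6 of the 24 bins were above 0.2, all on the EREG and AREG side. This compares with 13.2% of all bins and 177 of 887 on chromosome 4. The CXCL8 to CXCL1 bin had the lowest local contact of the 4, at -0.912 in Grow, -1.01 in Grow-shA1, -0.874 in OIS and -1.17 in OIS-shA1.

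Contacts over 2 Mb, called distal, were examined because the study asks how genes of the secretory phenotype are placed relative to heterochromatin in OIS and after HMGA1 depletion. With B bins of chromosome 4 the cluster's mean contact was -0.539 in Grow, -0.588 in Grow-shA1, -0.808 in OIS and -0.730 in OIS-shA1. The medians of all bins were 0.239, 0.198, 0.118 and 0.0831 in the same order, so the cluster lay below the median bin in each map, and both senescent maps lay below both growing maps. OIS minus Grow was -0.269 ± 0.114, at percentile 16.3 of 13602 bins. 2 of the 4 cluster bins were below -0.2, the bin of PF4, PPBP, CXCL5, CXCL3 and CXCL2 at -0.343 and the EPGN bin at -0.389, against 26.4% of all bins. The CXCL8 to CXCL1 bin stood at -0.868 in Grow, at percentile 4.94 of all bins, and at -1.04 in OIS.

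The RAS difference with shA1 was -0.142 ± 0.0969 and the interaction 0.127 ± 0.0240, above 0 in the mean of each of the 4 bins (0.104 to 0.161). This interaction lay at percentile 84.6 of all bins, 20.9% of which were above 0.1. It was not particular to the cluster, as it averaged 0.140 over the EREG and AREG side. Over the albumin side it averaged -0.0436. OIS-shA1 minus OIS was 0.0776 ± 0.0281, and 0.0136 with scores divided by their SD at the same distance. Listing moved with these values and its part in them was not tested. For the CXCL8 to CXCL1 bin, 86.1% of the possible distal pairs with B bins were listed in Grow, 71.7% in Grow-shA1, 64.96% in OIS and 61.7% in OIS-shA1. With unlisted pairs counted as 0, OIS minus Grow was -0.0869. A score of 0 lies above the cluster's mean in every map, so this fill by construction raises each mean. It adds more such pairs in maps that list fewer, and so does not show what the unlisted contacts were. With A bins the distal contact of the cluster was 0.139 in Grow, 0.0842 in Grow-shA1, 0.187 in OIS and 0.131 in OIS-shA1, and no difference among these passed 0.2 in any cluster bin. Between OIS and Grow, 5.69% of all bins were above 0.2 and 25.7% below -0.2 in this measure.

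Along chromosome 4 the largest differences lay in the block from 65 to 70 Mb, on the albumin side. In this block, 96% of bins were B, and its first genes are TECRL, EPHA5, a receptor for ephrins, and CENPC, which encodes a centromere protein. The cluster's contact with it was -0.904 in Grow, -0.924 in Grow-shA1, -1.59 in OIS and -1.004 in OIS-shA1. OIS stood apart from the 3 other maps, which lay together. OIS minus Grow was -0.688 ± 0.103 (SD over the cluster bins), and 82 of the 90 pairs that all maps list were below 0. OIS-shA1 minus OIS was 0.587 ± 0.108, and 82 of 90 pairs were above 0. The RAS difference with shA1 was -0.0795 and the interaction 0.608 ± 0.0987. The block is described because its values were the most extreme of the 38 in both comparisons, so nothing is read from its place among other blocks. Of runs of 4 bins with a block as far away, 37.7% were below -0.2 in OIS minus Grow, 16.6% above 0.2 in OIS-shA1 minus OIS and 18.1% above 0.2 in the interaction. In blocks of 10 Mb (60 to 70 Mb) OIS-shA1 minus OIS was 0.346.

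Among the 38 blocks of 5 Mb, 27 stood lower in OIS than in Grow and 11 were below -0.2, while 2 were above 0.2. A share over runs was taken only at the distance of the 65 to 70 Mb block, where 37.7% were below -0.2. The count is therefore not read as a trait of the cluster. The other falls of OIS against Grow that ranked in the first 3 were the block from 0 Mb, whose first genes encode zinc finger proteins (ZNF595, ZNF718 and ZNF732), at -0.584 over only 11 pairs, and the block from 60 Mb with ADGRL3, an adhesion receptor gene, at -0.464. In the 60 to 65 Mb block OIS-shA1 minus OIS was 0.0906, far less than in its neighbour. The highest differences between OIS and Grow were 0.222 in the block from 175 Mb (FBXO8, CEP44, HPGD), 0.214 in the block from 85 Mb (NKX6-1, CDS1, WDFY3) and 0.136 in the block from 120 Mb (MYOZ2, USP53, C4orf3). Of these, 37, 99 and 99 pairs of 100 were listed in all maps.

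Between OIS-shA1 and OIS, the blocks from 150 Mb (IQCM, DCLK2, MAB21L2) and 185 Mb (ENPP6, IRF2, PRIMPOL) followed, at 0.245 and 0.229. The lowest were the blocks from 75 Mb, at -0.345, from 175 Mb, at -0.246, and from 80 Mb (NAA11, GK2, ANTXR2), at -0.233. Block values hold only distal pairs. The first genes of the 75 Mb block are EPGN, EREG and AREG, but their bins lie too near the cluster to enter its value. The blocks from 75 and 80 Mb, next to the cluster on the EREG and AREG side, thus stood lower in OIS-shA1 than in OIS. The 10 flanking bins on the EREG and AREG side had differences with the 65 to 70 Mb block of -0.578 between OIS and Grow and 0.591 between OIS-shA1 and OIS, close to those of the cluster. Those on the albumin side had -0.197 and 0.281. This contrast was therefore present in the neighbouring bins as well as in the cluster.

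**Figure D4:**
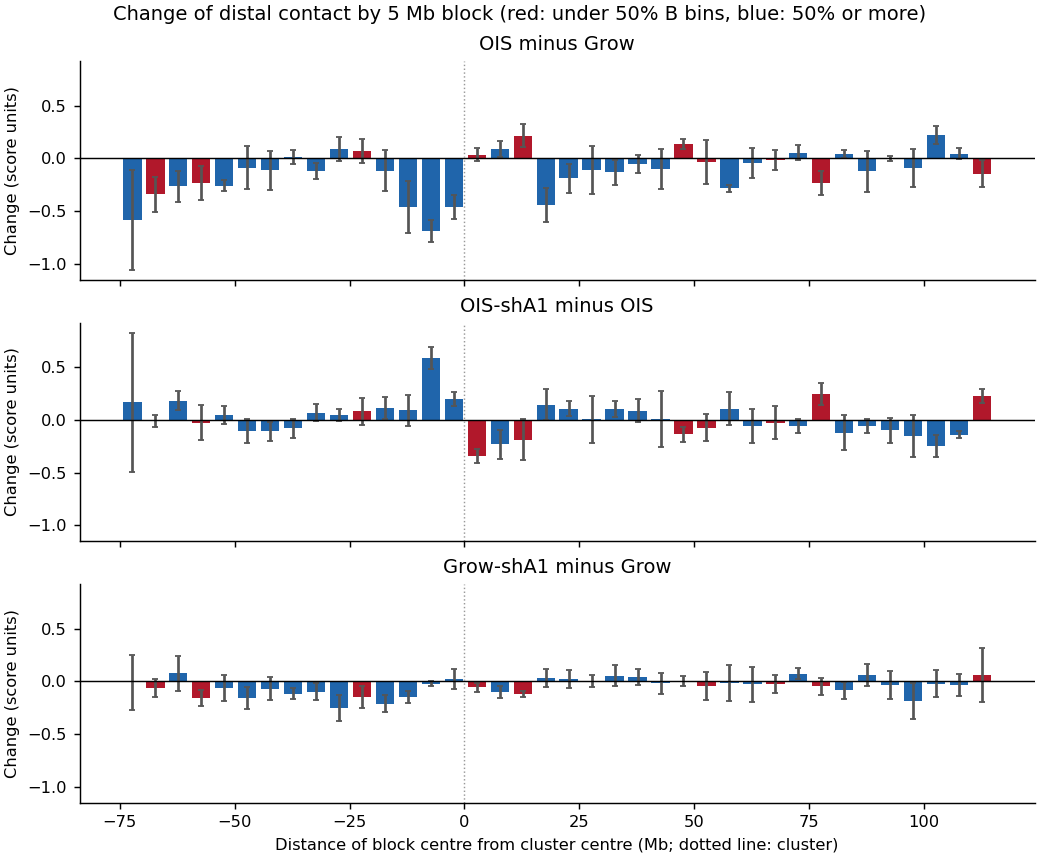
Difference in distal contact of the cluster with each 5 Mb block of chromosome 4 (score units, all common pairs with the SD over the 4 cluster bins as error bars) against distance of the block from the cluster centre in Mb, for OIS minus Grow, OIS-shA1 minus OIS and Grow-shA1 minus Grow. The block 65 to 70 Mb is the lowest bar of the top panel (-0.688) and the highest of the middle panel (0.587), and is -0.0207 in the bottom panel.

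Contacts 4 to 6 Mb away were taken apart because the study examined a contact of the CXCL genes with a distant enhancer at about that range. On the albumin side, where the bins hold UGT2A and UGT2B genes for glucuronosyltransferases, the cluster's mean was -0.997 in Grow, -0.934 in Grow-shA1, -1.69 in OIS and -1.19 in OIS-shA1. OIS minus Grow was -0.693 ± 0.170, with 36 of 39 pairs below 0, at percentile 11.9 of 23885 values of runs of 4 bins, 40.0% of which were below -0.2. OIS-shA1 minus OIS was 0.504 ± 0.114, with 35 of 39 pairs above 0, at percentile 95.9, against 22.4% of runs above 0.2. Divided by the SD at the same distance, they were -0.319 and 0.377. These pairs overlap with the 65 to 70 Mb block.

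1 target on this side was chosen after its values were seen. The bin of UGT2A3 and UGT2B7 (chr4:69800220-69999025) had a contact with the cluster of -0.406 in Grow, -0.484 in Grow-shA1, -0.684 in OIS and 0.174 in OIS-shA1. It was the one bin of this side with at least 3 pairs in which OIS-shA1 was the highest map. OIS-shA1 minus Grow-shA1 was 0.658 ± 0.0791 over the 4 cluster bins, and 0.632 for its pair with the CXCL8 to CXCL1 bin.

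On the EREG and AREG side, the mean at 4 to 6 Mb was -0.565 in Grow, -0.652 in Grow-shA1, -0.688 in OIS and -1.14 in OIS-shA1. OIS minus Grow was -0.123 ± 0.0751, and 0.0298 with scores divided by their SD at the same distance. OIS-shA1 was below OIS by a difference of -0.449 ± 0.210, with 35 of 41 pairs below 0, at percentile 4.50, against 20.5% of runs below -0.2. It was below Grow-shA1 by a difference of -0.484 ± 0.0675, against 37.8% of runs below -0.2. A pair of neighbouring bins with contacts near or above 0, again chosen after their values were seen, ran differently. The bin of BMP2K, a kinase gene (chr4:79595658-79800652), had a contact of 0.155 in Grow, -0.0750 in Grow-shA1, 0.530 in OIS and 0.103 in OIS-shA1, and OIS was 0.374 ± 0.0874 above Grow. The bin of FRAS1 and ANXA3 beside it had -0.0087, 0.00964, 0.249 and 0.128, and OIS was 0.258 ± 0.106 above Grow. For both, OIS was the highest map.

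**Figure D5:**
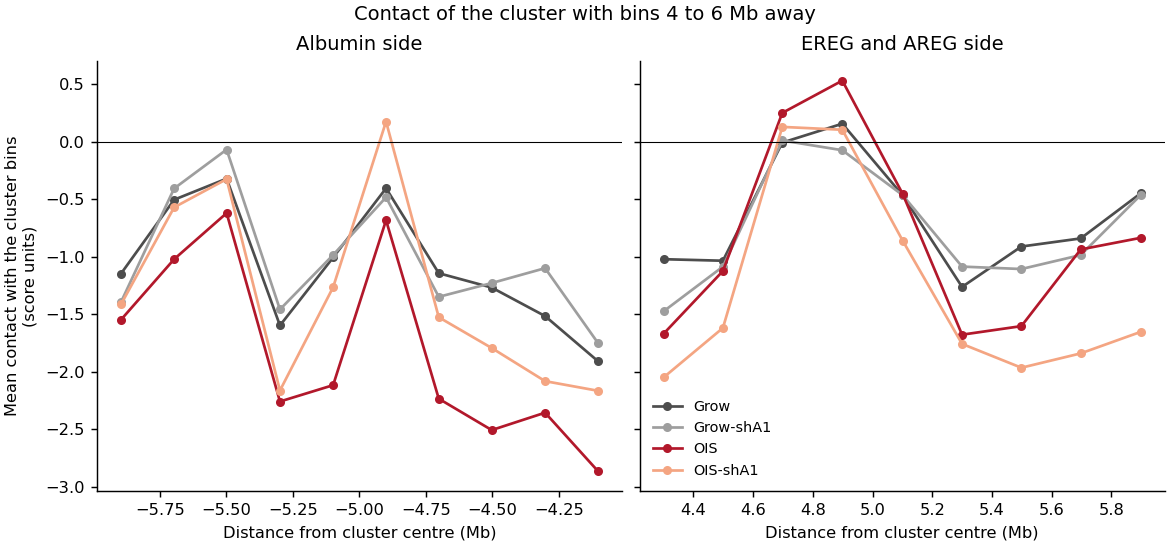
Mean contact of the cluster bins (score units) with single bins 4 to 6 Mb away on either side in the 4 maps, for bins with at least 3 pairs in all maps, against distance from the cluster centre in Mb. OIS is lowest along most of the albumin side, where its mean is -1.69, and OIS-shA1 is lowest along most of the EREG and AREG side, where its mean is -1.14.

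Contacts with single distal genes of chromosome 4 varied as much between the cluster bins as between maps in most cases. The bin of SPP1, the osteopontin gene, had a contact of 0.0811 in Grow, 0.0253 in Grow-shA1, 0.732 in OIS and 0.384 in OIS-shA1, and OIS minus Grow was 0.651 ± 0.446. The LEF1 bin, with a transcription factor of the WNT pathway, had -0.00571, 0.0403, 0.333 and 0.220 in the same order, and OIS minus Grow was 0.339 ± 0.0906. The NFKB1 bin, which holds the gene of an NF-κB subunit, had a contact of 0.789 in Grow, 1.11 in Grow-shA1, 0.895 in OIS and 0.776 in OIS-shA1, with a difference of 0.107 ± 0.372 between OIS and Grow. Averaged with the bin on either side these levels were 0.4995, 0.528, 0.514 and 0.441, so the higher values rest on the single bin. The bin of CXCL13, a B cell chemokine gene, had -0.944, -1.03, -0.861 and -1.63, and OIS-shA1 minus OIS was -0.769 ± 0.425. The bin of FGF2, a growth factor gene, had 0.399, 0.405, 0.603 and 0.723. Its OIS minus Grow was 0.203 ± 0.349, and its OIS-shA1 minus Grow-shA1 was 0.318 ± 0.165. With the bin on either side averaged in, these differences were 0.0453 and 0.00794. The higher FGF2 values in the senescent maps thus also rest on the single bin.

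The bins of chromosome 4 over 5 Mb away with the contact profile most like that of the cluster in Grow were ranked by Pearson correlation over distal targets, as a description. The bin of ANTXR2, PRDM8 and FGF5 came first (r = 0.803 over 726 targets), then that of APBB2 (0.788 over 677) and that of CHIC2 and GSX2 (0.786 over 615), while the median of 845 bins was -0.135. All 3 are A bins, and the targets share 1 map and its compartment pattern. In distal contact with B bins, OIS minus Grow was -0.0920 to -0.0844 for them and -0.269 for the cluster. Over the EREG and AREG side this difference averaged -0.191, and 4 bins of that side were below -0.2. Among these were the A bins of RCHY1, at -0.258, and of NUP54 and SCARB2, at -0.271. Over the albumin side it averaged 0.0311, with 0 bins below -0.2. The fall was thus present on the EREG and AREG side as well as in the cluster.

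23 other chemokine ligand and receptor genes lie in 19 bins, of which 18 had values. In distal contact with B bins, 8 of the 18 were below -0.2 between OIS and Grow and none was above 0.2, against 26.4% and 4.36% of all bins. All those below -0.2 were B bins in Grow, whereas the cluster bins were A. No A bin among the 18 passed -0.2, the lowest being the CXCL9, CXCL10 and CXCL11 bin at -0.199. The B bins of CXCR4 and ACKR1 did not pass it either, at -0.0955 and -0.121. The CCL2 and CCL7 bin on chromosome 17, with monocyte chemokine genes, stood at -0.346 and the CCL8 and CCL13 bin beside it at -0.323, both B bins in Grow. Between OIS-shA1 and OIS these were -0.175 and -0.173, and the cluster's was 0.0776. In local contact they stood at 0.253 and 0.397 between OIS and Grow, and at -0.0212 and -0.0157 between OIS-shA1 and OIS. The bins of CXCR1 and CXCR2, the receptors for the neutrophil chemokines of the cluster, lie in A bins of chromosome 2 and had differences of -0.0886 and -0.0774 in distal contact with B bins between OIS and Grow.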

How the data were processed

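The authors aligned Hi-C reads to hg19 with HiC-Pro, counted contacts in bins of about 200 kb with edges at HindIII sites, and applied ICE balancing followed by a distance correction. The deposited values are contact scores for pairs of bins on the same chromosome, on a scale like a logarithm whose base and prior are not given in the sources used here, so no fold changes were computed. The deposited bin list gives other numbers, the start and end of each bin in base pairs. Files hold no read counts, so they show depth only as pairs listed, 4032189 to 4631800 per map, and counting error could not be computed. The paper reports fewer reads after removal of artefacts for OIS-shA1 than for Grow-shA1. The part of this depth difference in the values was not tested. 2 of the 4 maps belong to no sample of the series and are used as the authors' pooled values.

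From the scores, bins were kept with at least 50% of their pairs listed in each map. Means were taken over pairs that all 4 maps list (at least 10 pairs for a bin or block), without the pair of a bin with itself. Compartments came from the first principal component of each chromosome in the Grow map, oriented by protein-coding gene number (GENCODE, lifted to GRCh37). SDs run over cluster bins or pairs, which are not replicates. The same steps recovered differences planted in the cluster's distal contact with B bins in simulated maps, where pairs were left out at random from the Grow map only. In the data the Grow map lists the most pairs, so the simulation did not cover the way pairs are missing there. No difference was planted within the cluster, with the flanks or by block. Members, gene lists, comparisons and alternatives were chosen with earlier results of these data known. Named genes were the 9 members, landmark genes of the 24 bins, 9 genes of chromosome 4, 23 other chemokine genes, genes of the 3 most extreme blocks in each direction and the 3 most similar bins. numpy 2.4.6 and pandas 2.3.3 were used in Python 3.11.15.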

Additional observations from a re-analysis of the deposited data

Results flagged for a closer look

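Contacts of the cluster were singled out where the difference between RAS and growing cells was past 0.2 score units in opposite directions without and with shA1. With the bin of UGT2A3 and UGT2B7, 4 to 6 Mb away, OIS minus Grow was -0.278 and OIS-shA1 minus Grow-shA1 was 0.658, a difference of 0.936 between them. With the bin of CCNA2, the cyclin A2 gene, they were 0.364 and -0.252, a difference of -0.616. For CCNA2 the SD over the cluster bins of that difference was 0.691, larger than the value itself. Averaged with the bin on either side, the CCNA2 differences were 0.180 and -0.0319, neither past 0.2, and the difference between them was -0.212. The bins next to that of UGT2A3 and UGT2B7 had -1.11 and -1.09 for OIS minus Grow and -0.281 and -0.177 for OIS-shA1 minus Grow-shA1. Neither difference was tested, since there was 1 map per condition.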

How the results depend on the processing

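Alternatives for the cluster were computed for the same cluster bins, except 1 that used only the bins with member starts. Contact within the cluster was added to 8 of the settings after the data were seen. Of 537 alternative values over 16 settings, 454 moved by less than the SD over cluster bins (counts, by less than 1.5 times), and no called value changed sign. Dividing scores by their SD at the same distance changed the unit as well as the spread. The cause of each move below was not tested unless its construction shows it. Counting error could not be computed, since the files hold no read counts, and a map without replicates gives no error between experiments. No paired analysis was possible because each map pools its samples, the columns carry no replicate numbers and no test was made.

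Over all pairs that a map lists, distal contact with all bins was -0.0271 for Grow-shA1 minus Grow and 0.0320 for OIS-shA1 minus OIS. In the 10 Mb block from 60 Mb, Grow-shA1 minus Grow was -0.0819, OIS minus Grow -0.579, OIS-shA1 minus OIS 0.346 and the interaction 0.428. With the change of all chromosome 4 pairs of the class subtracted, Grow-shA1 minus Grow was 0.0467 with distal B bins, 0.0229 with all distal bins and -0.0768 locally. There OIS minus Grow was 0.189 locally and OIS-shA1 minus Grow-shA1 -0.00254, while OIS-shA1 minus OIS was 0.159 with distal B bins and 0.0583 with all distal bins.

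With scores centred on common pairs, Grow-shA1 minus Grow was -0.138 with the albumin side, 0.0210 within the cluster, 0.00567 with distal A bins, 0.0049 with distal B bins, 0.00416 with all distal bins and -0.0624 locally. The OIS minus Grow difference was then 0.0115 at 4 to 6 Mb on the EREG and AREG side, 0.346 with that side's flank, 0.566 within the cluster, -0.0656 with all distal bins and 0.193 locally. OIS-shA1 minus Grow-shA1 was -0.391 at 4 to 6 Mb on the EREG and AREG side, 0.0857 with its flank, 0.228 within the cluster, past the call, and -0.0101 locally. Then OIS-shA1 minus OIS was 0.114 with distal B bins and 0.0541 with all distal bins, and the interaction was -0.0864 with the albumin side and -0.338 within the cluster.

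With local contacts up to 1 Mb, OIS minus Grow was 0.235, OIS-shA1 minus Grow-shA1 -0.00624, OIS-shA1 minus OIS -0.341 and the interaction -0.241, all local. Averaged over 3 by 3 pairs, OIS-shA1 minus Grow-shA1 was -0.386 at 4 to 6 Mb on the EREG and AREG side. In the 1 pair of bins with member starts, OIS minus Grow was 0.749 within the cluster, Grow-shA1 minus Grow was 0.0227, OIS-shA1 minus Grow-shA1 was 0.399 and the interaction was -0.350.

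With scores divided by their SD at the same distance, Grow-shA1 minus Grow was -0.0565 in the compartment score and 0.0149 within the cluster. OIS minus Grow was 0.0298 and -0.319 at 4 to 6 Mb on the EREG and AREG and the albumin side. OIS-shA1 minus Grow-shA1 was -0.275 at 4 to 6 Mb on the EREG and AREG side and -0.0172 locally. The OIS-shA1 minus OIS difference was 0.377 at 4 to 6 Mb on the albumin side, -0.283 within the cluster, 0.0136 with distal B bins and -0.0139 with all distal bins, and the interaction with distal B bins was 0.0702. With unlisted pairs counted as 0, Grow-shA1 minus Grow was 0.0252 with distal B bins and -0.00421 with all distal bins, OIS minus Grow -0.0869 and -0.0389, and OIS-shA1 minus Grow-shA1 -0.0356 and -0.00397. OIS-shA1 minus OIS was then 0.0307 with all distal bins and the interaction 0.0513 with distal B bins.

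At a threshold of 0.1, counts of the 24 bins were, for OIS minus Grow, 11 above and 3 below in local contact (23.2% and 51.9% of all bins) and 5 above and 15 below in distal B contact (13.8% and 46.9%). For OIS-shA1 minus OIS they were 5 above and 15 below locally (29.9% and 37.1%), and 5 above and 7 below in distal B contact (13.0% and 33.7%). For OIS-shA1 minus Grow-shA1 they were 6 above and 7 below locally (18.7% and 47.7%), and 1 above and 5 below in distal B contact (17.3% and 42.1%). Grow-shA1 minus Grow had 1 above and 10 below locally (4.22% and 28.9%), and 0 above and 6 below in distal B contact (3.46% and 33.1%). At a threshold of 0.3, OIS minus Grow had 2 above and 0 below locally (6.59% and 30.8%) and 0 above and 2 below in distal B contact (0.787% and 12.6%). OIS-shA1 minus OIS had 0 above and 9 below locally (10.7% and 7.08%) and 0 below in distal B contact (1.31%). Grow-shA1 minus Grow had 0 below locally (1.42%), and OIS-shA1 minus Grow-shA1 had 0 above and 0 below locally (2.85% and 17.1%) and 0 below in distal B contact (10.9%).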

Other observations

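The other targets on chromosome 4 showed no shared order of maps. The bin of PDGFRA, the receptor gene for platelet-derived growth factor, had a contact with the cluster of 0.116 in Grow, -0.416 in Grow-shA1, 0.0926 in OIS and -0.231 in OIS-shA1, so that both shA1 maps were lower, with an SD of 0.420 over the cluster bins for Grow-shA1 minus Grow. The bin of KIT, a receptor tyrosine kinase gene beside PDGFRA, had -0.738, -0.678, -0.448 and -0.592 in the same order. The bin of TLR2, a gene for a receptor of bacterial products, had -0.0567, -0.224, -0.665 and -0.380, from the 2 of 4 pairs that all maps list.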
